A study of Mus musculus with 9 samples.

Results

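Mitosis and the G2/M transition were followed through 54 genes, listed by name from the core machinery of entry into mitosis, the spindle, the kinetochore, chromosome separation and cytokinesis. All 54 were found among the 54456 gene names of the count table, and all 54 passed the filter on low counts together with 18051 genes in all. The levels come from bulk RNA of aggregates of mouse mammary epithelial cells, genotype WT, that had been purified by flow cytometry into luminal and basal cells. The mixed (Balu) aggregates joined luminal and basal cells as a 50% mixture, the luminal-only (Lu) aggregates held luminal cells and the basal-only (Ba) aggregates held basal cells, with 3 libraries of each kind. All groups shared the same exposure: aggregates lay in 80% Matrigel about 100 µm from heparin sulfate beads soaked in FGF10 and had migrated for 56 h (55 h in the sample titles). No group without FGF10 and no other time was analysed here, and neither the age nor the strain of the mice is given in the labels used here. The stated purpose was to learn, at the level of mRNA, what each of these cell types contributes to collective migration.

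Genes of this kind are transcribed in waves. Cyclin-dependent kinase 1 with its cyclins drives a cell from G2 into mitosis, Polo and Aurora kinases build the spindle, the spindle checkpoint holds anaphase back until every chromosome is attached, and the anaphase-promoting complex then ends mitosis by destroying cyclin B and securin. The messages of most of these factors are low in resting cells and peak in G2 and mitosis, when the MuvB complex together with B-Myb or FoxM1 acts at their promoters, often at a short element called the cell cycle genes homology region (CHR) and at neighbouring CCAAT boxes. In the mammary gland both the luminal layer that lines the duct and the basal, myoepithelial layer around it can divide, and FGF signalling is known as one of the drivers of their growth and branching.

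To show what the promoters of these genes share, windows from 250 bases before to 50 bases after the annotated start were read from RefSeq (build GRCm38.p6) for the 45 members that matched the promoter table by symbol. Ccna2, Cdc25c, Spc24, Aurkb, Incenp, Kif20a, Tpx2, Smc4 and Foxm1 were not matched. The letters searched on both strands were TTTGAA or TTTAAA for the CHR and CCAAT for the CCAAT box, and TTTGGCGC, TTTCCCGC, TTTCGCGC or TTTGCCGC for an E2F site. TTTAAA reads the same on both strands, and CHR and CCAAT letters can share at most 1 base. CHR letters stood in a window of 36 of the 45 members (80.0%), against 30.6% of all 27025 genes with a window. CCAAT letters stood in 33 members (73.3%), against 41.1% of all genes, and both kinds stood in the same window in 30 members (66.7%), against 12.2%. E2F letters stood in 2 members (4.44%), against 2.61%. These shares describe letters in a window and carry no test.

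Windows are given for 3 members that were far lower in luminal aggregates (Ccnb2, Kif22 and Espl1) and for the 2 with the smallest luminal differences (Bub3 and Pttg1), with CHR and CCAAT letters of either strand in capitals, 5′ to 3′ on the strand of the gene. They lie at chr9:70421505-70421804 on the minus strand for Ccnb2, chr7:127042371-127042670 on the minus strand for Kif22, chr15:102296043-102296342 on the plus strand for Espl1, chr7:131560120-131560419 on the plus strand for Bub3 (1 of its 2 windows) and chr11:43425932-43426231 on the minus strand for Pttg1, all in GRCm38.p6.
Ccnb2: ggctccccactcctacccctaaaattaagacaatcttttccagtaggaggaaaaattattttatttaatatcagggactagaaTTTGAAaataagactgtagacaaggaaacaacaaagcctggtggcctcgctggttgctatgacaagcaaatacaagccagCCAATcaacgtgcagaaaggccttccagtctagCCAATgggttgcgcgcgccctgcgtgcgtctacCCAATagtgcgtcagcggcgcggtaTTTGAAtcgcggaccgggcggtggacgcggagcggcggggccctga
Kif22: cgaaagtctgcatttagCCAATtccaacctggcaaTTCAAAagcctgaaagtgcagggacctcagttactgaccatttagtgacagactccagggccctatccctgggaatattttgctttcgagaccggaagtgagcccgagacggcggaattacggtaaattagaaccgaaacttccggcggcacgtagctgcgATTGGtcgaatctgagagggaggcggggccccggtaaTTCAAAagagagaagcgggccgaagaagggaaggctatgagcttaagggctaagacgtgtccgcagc
Espl1: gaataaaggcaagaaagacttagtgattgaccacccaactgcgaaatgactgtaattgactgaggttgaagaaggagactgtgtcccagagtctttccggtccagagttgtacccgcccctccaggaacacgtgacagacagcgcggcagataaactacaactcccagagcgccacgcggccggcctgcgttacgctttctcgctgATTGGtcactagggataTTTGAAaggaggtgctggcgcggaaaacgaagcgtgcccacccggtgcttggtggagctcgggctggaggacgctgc
Bub3: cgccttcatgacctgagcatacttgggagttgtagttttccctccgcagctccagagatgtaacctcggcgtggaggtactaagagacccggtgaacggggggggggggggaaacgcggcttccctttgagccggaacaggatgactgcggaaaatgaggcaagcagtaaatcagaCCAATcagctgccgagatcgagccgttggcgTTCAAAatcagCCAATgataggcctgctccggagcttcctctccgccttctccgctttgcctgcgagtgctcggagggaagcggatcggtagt
Pttg1: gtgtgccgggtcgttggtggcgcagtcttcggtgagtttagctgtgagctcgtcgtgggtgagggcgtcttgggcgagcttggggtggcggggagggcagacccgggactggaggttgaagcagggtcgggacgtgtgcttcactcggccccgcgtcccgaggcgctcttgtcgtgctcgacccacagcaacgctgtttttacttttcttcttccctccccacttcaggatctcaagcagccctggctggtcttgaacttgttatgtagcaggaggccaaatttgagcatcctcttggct
In Ccnb2, cyclin B2, CCAAT letters began 87, 54 and 21 bases before the start and CHR letters 167 bases before it and at base 5 after it. In Kif22 the pair nearest the start was a CCAAT box 54 and a CHR 17 bases before it, both on the opposite strand, and in Espl1 they lay 44 and 27 bases before it. Bub3 also held a CHR, 43 bases before the start, between CCAAT letters that began 74 and 32 bases before it. The Pttg1 window held neither, nor did the windows of Mad2l1, Mybl2, Ncaph, Nuf2 and Nusap1, which were all lower in luminal aggregates by the edgeR test.

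The libraries held 15585324 to 19164405 counts. Levels are CPM, counts relative to library size with TMM scaling factors, and differences are log2. A gene was called where edgeR's quasi-likelihood test gave a Benjamini-Hochberg adjusted p below 0.05 over all 18051 genes tested. The standard error was worked back from the F statistic of that test and the unshrunk fitted difference. Printed differences are edgeR's slightly shrunken values, which can part from the unshrunk ones for genes with 0 counts. Nothing in the labels tells whether replicate libraries stem from different mice or cultures, and p-values thus measure the spread between these libraries, which may be technical. In bulk RNA, fewer cells of a type and less RNA per cell cannot be told apart. The codes at the start of the table's column names form 3 series: mixed 1 to 3 with basal 2, basal 1 and 3 with luminal 1, and luminal 2 and 3. Adding this code series to the fit therefore sets mixed libraries against basal 2 alone, and luminal 1 alone against basal 1 and 3.

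The labelled cell types were checked against markers. Summed over 13 basal and myoepithelial markers, the level was 8185, 7651 and 6959.6 CPM in mixed, 3056, 2935 and 1689 CPM in luminal and 10848, 11518 and 12353 CPM in basal aggregates, and over 15 luminal markers it was 12637, 11603 and 10684 CPM in mixed, 9109, 12398 and 10134 CPM in luminal and 4237, 4883 and 4669 CPM in basal aggregates. Both sums separate luminal from basal libraries in the direction of their labels, and neither is at 0 in the opposite kind. Summed over 8 fibroblast markers the level was 50.2 to 71.8 CPM in mixed, 6.77 to 11.01 CPM in luminal and 121 to 153 CPM in basal aggregates, with Pdgfrb and Col1a2 at 0 in every luminal library. These markers are highest where the mitotic genes are highest. Summed over 9 immune markers it was 44.9 to 65.8 CPM in mixed and 22.3 to 54.1 CPM in luminal aggregates, and 4.67, 49.2 and 4.08 CPM in basal 1, 2 and 3, so that basal 2 stands with the mixed libraries of its code series; C1qa was at 0 in every luminal library. Over 6 endothelial and pericyte markers no library exceeded 11.3 CPM. The part of these cells in the results below was not tested.

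Luminal aggregates held mitotic messages at far lower levels than mixed and basal aggregates. Summed over the 54 genes, the level was 4677, 4515 and 5209.7 CPM in mixed aggregates, 499, 545 and 597 CPM in luminal aggregates and 5543, 7355 and 5692 CPM in basal aggregates. The luminal libraries lie far below the others, and the mixed libraries lie below the basal ones without overlap. As a share of all counts the 54 genes took 0.437% to 0.499% in mixed, 0.0494% to 0.0585% in luminal and 0.635% to 0.699% in basal libraries.

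In luminal against basal aggregates 53 of the 54 genes fell and none rose, where 14.4% of all tested genes fell and 12.8% rose; at an unadjusted p below 0.05 none was higher either, and no other tool or setting called any higher. The median member difference was -4.41, against -0.025 over all tested genes. The fitted fold was at least 10 in 44 members and at least 20 in 28, where 5% and 3.07% of all tested genes were lower by as much. For 53 members the highest luminal library lay below the lowest basal library, a pattern that 23.4% of all tested genes showed. With the code series as a term 53 members again fell and none rose, where 6.8% of all genes fell and 7.09% rose, and the single exception in both fits was Pttg1.

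In mixed against luminal aggregates 53 of 54 genes rose and none fell, where 15.2% of all tested genes rose and 14.2% fell, and with the code series as a term 48 rose and none fell, where 2.05% and 0.67% of all genes did. The median difference was 3.73, against -0.047 over all tested genes, and the mixed libraries lay above the luminal ones without overlap in all 54 members (25% of all tested genes). No code series holds both mixed and luminal libraries, so that comparison reaches luminal only through basal libraries once the series is a term. Both contrasts use the same luminal libraries, so their counts are not independent.

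**Figure D1:**
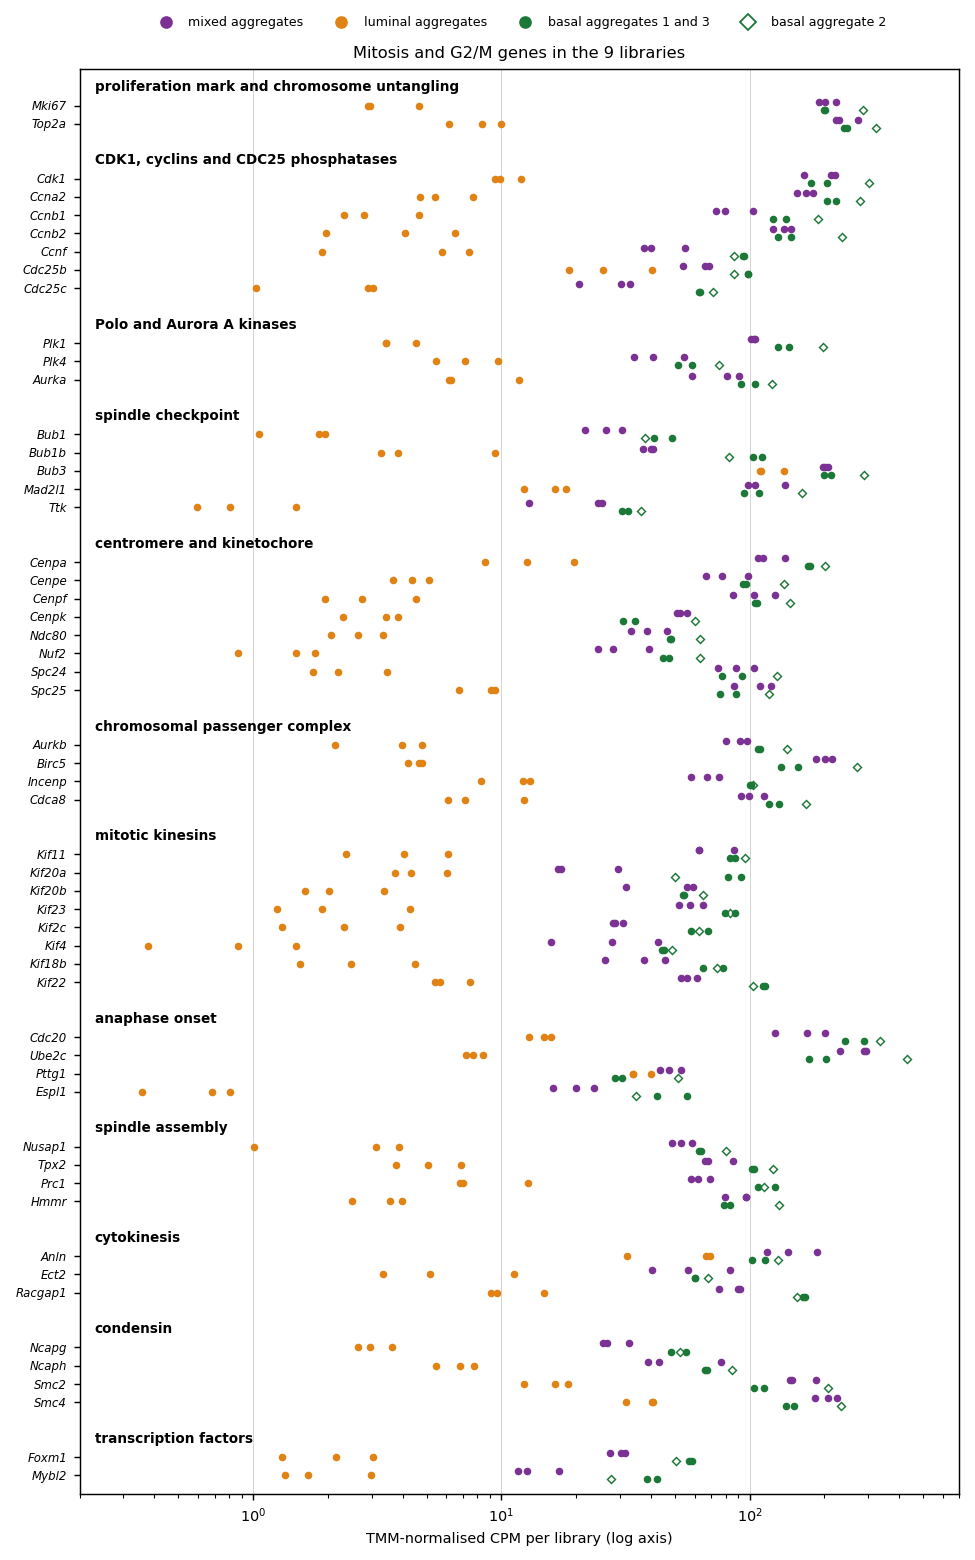
Level of each of the 54 mitosis and G2/M genes in every library, in CPM on a log axis, grouped by role, with mixed aggregates (purple) above luminal (orange) and basal aggregates (green) in each row and basal 2 as an open diamond. All luminal libraries lie left of all basal libraries for 53 of 54 genes, with the narrowest gaps for Bub3 and Anln, and Pttg1 overlaps.

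The proliferation mark Mki67, whose protein coats mitotic chromosomes, had 190.2, 202 and 223 CPM in mixed, 2.91, 2.97 and 4.67 CPM in luminal and 199.7, 286 and 202 CPM in basal aggregates. It was all but missing from luminal libraries, and mixed and basal libraries overlapped. The Mki67 difference was -6.03 ± 0.27 for luminal minus basal (edgeR adjusted p = 1.14e-07), 5.87 ± 0.26 for mixed minus luminal (edgeR adjusted p = 5.24e-07) and -0.16 ± 0.21 for mixed minus basal (edgeR adjusted p = 0.648). Top2a, the topoisomerase that untangles sister chromosomes, had 229, 222 and 272 CPM in mixed, 8.36, 6.17 and 9.96 CPM in luminal and 246, 324 and 241 CPM in basal aggregates. It showed the same order, with a luminal minus basal difference of -5.05 ± 0.24 (edgeR adjusted p = 1.42e-07) and overlapping mixed and basal libraries.

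Cdk1, the kinase that starts mitosis, had 212, 166 and 221 CPM in mixed, 12.03, 9.91 and 9.46 CPM in luminal and 176, 303 and 206 CPM in basal aggregates. Mixed libraries spanned the levels of basal 1 and 3 and lay below basal 2. Ccna2, cyclin A2, had 155, 169 and 181 CPM in mixed, 7.66, 4.69 and 5.42 CPM in luminal and 205, 278 and 223 CPM in basal aggregates. Ccnb1, cyclin B1, had 79.3, 73.4 and 103 CPM in mixed, 2.81, 2.31 and 4.67 CPM in luminal and 139.5, 188 and 124 CPM in basal aggregates. Both cyclins were lower in every mixed library than in every basal library, but only Ccnb1 passed the test for mixed minus basal, at -0.82 ± 0.25 (edgeR adjusted p = 0.0485), against -0.48 ± 0.20 for Ccna2 (edgeR adjusted p = 0.127). All 7 genes of this group, which also holds Ccnb2, Ccnf (cyclin F, a substrate receptor of a ubiquitin ligase) and the Cdk1-activating phosphatases Cdc25b and Cdc25c, fell in luminal against basal aggregates. Cdc25b moved least of the 7, with 66.3, 68.5 and 54.1 CPM in mixed, 40.5, 18.8 and 25.6 CPM in luminal and 98.1, 86.5 and 98.6 CPM in basal aggregates and a luminal minus basal difference of -1.74 ± 0.25 (edgeR adjusted p = 3.17e-04). Cdc25c gave -4.82 ± 0.37 in the same contrast and also fell in mixed against basal aggregates, at -1.23 ± 0.31 (edgeR adjusted p = 0.0239), although 12.7% of its exon bases are shared with Gm3550.

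Of the spindle kinases, Plk1, the Polo kinase active from mitotic entry to cytokinesis, had 104, 101 and 105 CPM in mixed, 4.53, 3.44 and 3.42 CPM in luminal and 130.3, 198 and 145 CPM in basal aggregates. The 3 mixed libraries lay within 101 to 105 CPM, below every basal library, yet mixed minus basal missed the threshold at -0.61 ± 0.19 (edgeR adjusted p = 0.0510). It passed with the code series as a term, at -0.94 ± 0.17 (edgeR adjusted p = 0.0140), where basal 2 is the basal library used. Aurka, the centrosomal Aurora kinase, had 80.8, 58.8 and 90.6 CPM in mixed, 6.15, 11.8 and 6.29 CPM in luminal and 92.5, 123 and 105 CPM in basal aggregates. Plk4, which controls centriole duplication, showed a difference of -3.05 ± 0.28 between luminal and basal aggregates, the smallest such difference of the 3 kinases.

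Among the checkpoint genes, Bub1, a kinase at unattached kinetochores, had 21.6, 26.4 and 30.7 CPM in mixed, 1.94, 1.84 and 1.06 CPM in luminal and 48.8, 37.9 and 41.2 CPM in basal aggregates. Its luminal libraries lay below 2 CPM. Bub3, the partner through which Bub1 and BubR1 reach the kinetochore, had 202, 198 and 207 CPM in mixed, 109.8, 137 and 111 CPM in luminal and 200.1, 289 and 214 CPM in basal aggregates. Bub3 kept by far the largest luminal share of the checkpoint genes: luminal minus basal was -0.97 ± 0.18 (edgeR adjusted p = 0.00178), a fitted fold of 1.96, and mixed minus luminal was 0.76 ± 0.18 (edgeR adjusted p = 0.0101). Mad2l1 and Ttk, the Mad2 protein and the Mps1 kinase of the checkpoint, showed differences of -2.97 ± 0.25 and -5.10 ± 0.40 between luminal and basal aggregates. Bub1b, which encodes BubR1, was the checkpoint gene that also fell in mixed against basal aggregates, with 37.1, 40.2 and 40.8 CPM in mixed, 3.83, 3.26 and 9.46 CPM in luminal and 112, 82.6 and 103 CPM in basal aggregates and a mixed minus basal difference of -1.33 ± 0.32 (edgeR adjusted p = 0.0185).

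At the centromere, Cenpa, the histone variant that marks it, had 114, 108 and 139 CPM in mixed, 8.58, 12.7 and 19.5 CPM in luminal and 172, 201 and 174 CPM in basal aggregates. Ndc80, the microtubule-binding subunit of the outer kinetochore, had 33.4, 46.5 and 38.5 CPM in mixed, 2.64, 3.32 and 2.05 CPM in luminal and 47.98, 62.9 and 48.4 CPM in basal aggregates. All 8 genes of this group fell in luminal against basal aggregates, with differences from -5.33 (Spc24) to -3.50 (Spc25), both partners of Ndc80 in its complex. None of the 8 passed in mixed against basal aggregates. Cenpk, part of the constitutive centromere network, was the member of the group with the highest mixed minus basal value, 0.35 ± 0.27 (edgeR adjusted p = 0.416), and had 52.6, 56.1 and 50.9 CPM in mixed, 3.83, 3.44 and 2.30 CPM in luminal and 30.9, 60.3 and 34.5 CPM in basal aggregates. Its mixed libraries lay above basal 1 and 3 and below basal 2.

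The chromosomal passenger complex corrects faulty attachments and guides cytokinesis. Its kinase Aurkb had 97.2, 80.5 and 91.2 CPM in mixed, 3.99, 2.14 and 4.79 CPM in luminal and 108, 141 and 111 CPM in basal aggregates. Its subunit Birc5, survivin, had 215, 186 and 201 CPM in mixed, 4.64, 4.21 and 4.79 CPM in luminal and 134, 269.6 and 156 CPM in basal aggregates. Mixed libraries of Birc5 lay above basal 1 and 3 and below basal 2, while those of Aurkb lay below all 3 basal libraries. Birc5 gave the second-largest mixed minus luminal difference of all members, 5.46 ± 0.29 (edgeR adjusted p = 8.69e-07), and 0.10 ± 0.23 for mixed minus basal (edgeR adjusted p = 0.804). Incenp and Cdca8, the scaffold and borealin, fell in luminal against basal aggregates at -3.18 and -4.03.

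The 8 mitotic kinesins, motors that move along spindle microtubules, all fell in luminal against basal aggregates, with differences from -5.67 (Kif4) to -3.99 (Kif20a). Kif11, which pushes the spindle poles apart, had 62.8, 62.8 and 86.4 CPM in mixed, 4.05, 2.37 and 6.10 CPM in luminal and 87.6, 96.2 and 83.6 CPM in basal aggregates. Kif20a, a kinesin of the central spindle, had 17.4, 29.5 and 16.9 CPM in mixed, 3.72, 4.33 and 6.04 CPM in luminal and 92.6, 50.1 and 81.5 CPM in basal aggregates. Kif20a gave the largest mixed minus basal difference of all members in the fit by group, -1.81 ± 0.30 (edgeR adjusted p = 0.00299), and its 3 mixed libraries lay below the lowest basal one. Adding the code series ended this call, at -1.24 ± 0.33 (edgeR adjusted p = 0.0744), and Cdc25c then had the larger difference, -1.35 ± 0.27 (edgeR adjusted p = 0.0248). Of the exon bases of Kif20a, 29.3% are shared with Cdc23, a gene that was itself lower in mixed than in basal aggregates (-1.28 ± 0.29, edgeR adjusted p = 0.0152), and without strand in the counting their reads cannot be told apart. Kif22, a motor on chromosome arms, had 61.5, 52.9 and 56.04 CPM in mixed, 7.45, 5.40 and 5.66 CPM in luminal and 115, 103 and 113 CPM in basal aggregates, with close replicates in each group and a mixed minus basal difference of -0.96 ± 0.17 (edgeR adjusted p = 0.00399). Kif2c, a depolymerase of microtubule ends, also fell in mixed against basal aggregates, at -1.11 (edgeR adjusted p = 0.0238).

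At anaphase onset, Cdc20, which activates the anaphase-promoting complex, had 201, 169.6 and 127 CPM in mixed, 12.95, 15.8 and 14.8 CPM in luminal and 243, 335 and 288 CPM in basal aggregates. Ube2c, the ubiquitin-conjugating enzyme of that complex, had 293, 231 and 289 CPM in mixed, 7.72, 7.18 and 8.40 CPM in luminal and 174, 429 and 203 CPM in basal aggregates. Both fell in luminal against basal aggregates, at -4.31 and -5.11. Cdc20 fell in mixed against basal aggregates, at -0.80 ± 0.20 (edgeR adjusted p = 0.0226), while Ube2c gave 0.01 ± 0.29 (edgeR adjusted p = 0.985), with basal 2 the highest of the 9 libraries; without basal 2 it was 0.51 (edgeR adjusted p = 0.0372). Adding the code series turned the sign of Ube2c to that of Cdc20, with -0.66 ± 0.20 (edgeR adjusted p = 0.108) against -1.01 ± 0.24 (edgeR adjusted p = 0.0457), and the difference between the 2 genes was not tested. Of the exon bases of Ube2c, 22.8% are shared with Tnnc2.

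Espl1, separase, the protease that cuts cohesin, had 23.5, 16.1 and 19.99 CPM in mixed, 0.809, 0.356 and 0.685 CPM in luminal and 55.9, 34.9 and 42.4 CPM in basal aggregates. In the fit by group this was the largest luminal deficit of the 54 genes, -6.15 ± 0.36 (edgeR adjusted p = 3.69e-07), close to Mki67 at -6.03 ± 0.27. With the code series as a term a mitotic kinesin had the largest, -6.86, and no gene of anaphase onset went below -5.91. In luminal 2, where Espl1 had 0.356 CPM, 3 counts equal 0.178 CPM. Espl1 was also lower in mixed than in basal aggregates, at -1.16 ± 0.27 (edgeR adjusted p = 0.0169). Pttg1, securin, the inhibitor that holds separase until anaphase, had 47.3, 43.6 and 53.05 CPM in mixed, 33.8, 40.2 and 33.9 CPM in luminal and 28.6, 51.4 and 30.6 CPM in basal aggregates. Luminal libraries lay between basal 1 and 3 on one side and basal 2 on the other, and mixed libraries lay above the luminal ones. Pttg1 was the only member that passed in none of the 3 contrasts: luminal minus basal was -0.03 ± 0.23 (95% interval -0.60 to 0.53, edgeR adjusted p = 0.938), mixed minus basal was 0.38 ± 0.23 (edgeR adjusted p = 0.296) and mixed minus luminal was 0.42 ± 0.23 (edgeR adjusted p = 0.194). Per kilobase of exon Pttg1 was the most abundant member in luminal aggregates, at 17.99 ± 1.84 CPM per kilobase (SD, n = 3), followed by Bub3 at 17.05 ± 2.20, a gap smaller than either SD. On the same scale Espl1 was the least abundant, at 0.0705 ± 0.0268 CPM per kilobase. In basal aggregates the order was headed by Cdc20, at 154 ± 24.5, and closed by Espl1, at 5.08 ± 1.22 CPM per kilobase. In the mm39 coordinates of the count table Espl1 lies at chr15:102204701-102232792 and Pttg1 at chr11:43311077-43317078.

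**Figure D2:**
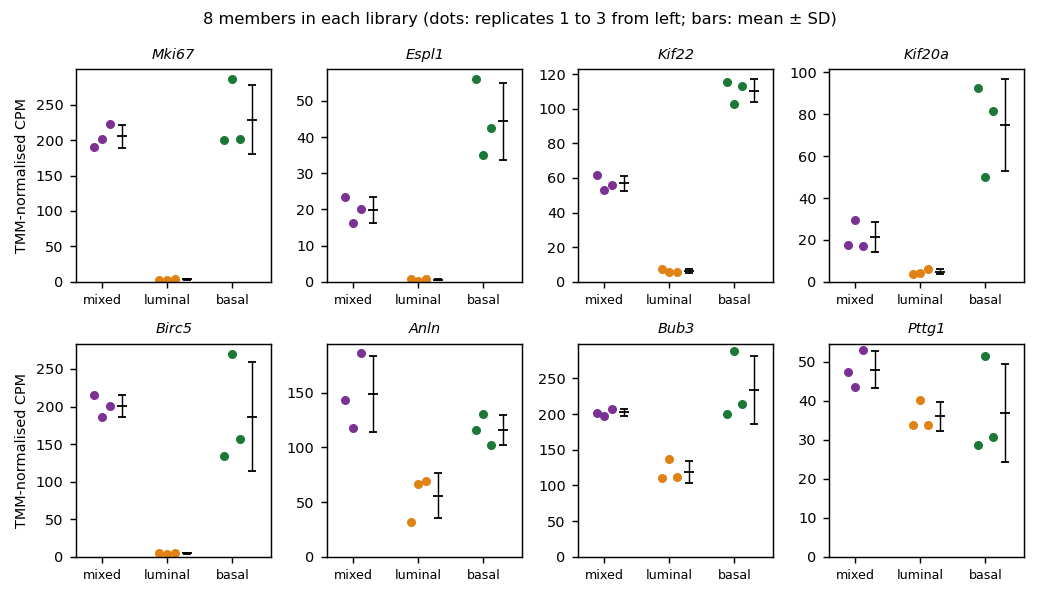
CPM (linear axis) of 8 members in every library, with mixed left of luminal and luminal left of basal aggregates, dots for replicates 1 to 3 and bars for the mean ± SD. Mki67, Espl1, Kif22, Kif20a and Birc5 are near 0 in luminal libraries, Anln and Bub3 are lower there by about 1 on the log2 scale (-1.05 and -0.97), and Pttg1 overlaps between luminal and basal libraries.

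Among spindle assembly factors, Tpx2, which activates Aurora A on microtubules, had 67.8, 66.3 and 85.8 CPM in mixed, 3.78, 5.04 and 6.91 CPM in luminal and 104, 124 and 102 CPM in basal aggregates. Prc1, which bundles the central spindle, had 61.9, 57.9 and 68.95 CPM in mixed, 7.02, 6.82 and 12.8 CPM in luminal and 127, 114 and 108 CPM in basal aggregates. Both fell in luminal against basal aggregates, as did Nusap1 and Hmmr, and Prc1 also fell in mixed against basal aggregates, at -0.88 ± 0.23 (edgeR adjusted p = 0.0250). For Prc1, 11.1% of the exon bases are shared with Rccd1.

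The cytokinesis genes were uneven. Anln, anillin, which scaffolds the contractile ring and also serves the actin cortex outside mitosis, had 143, 118 and 187 CPM in mixed, 31.9, 66.6 and 69.4 CPM in luminal and 116, 130.2 and 102 CPM in basal aggregates. Luminal 1 was clearly the lowest library, the other luminal libraries stayed above 60 CPM, and the luminal minus basal difference was -1.05 ± 0.28 (edgeR adjusted p = 0.0152), the smallest of the called members after Bub3. Ect2, the exchange factor that activates RhoA at the cell equator, had 40.5, 56.5 and 83.1 CPM in mixed, 5.18, 3.32 and 11.3 CPM in luminal and 60.3, 67.9 and 60.03 CPM in basal aggregates. Its mixed libraries spread widely around the basal level, and mixed minus basal was -0.06 ± 0.37 (edgeR adjusted p = 0.928). Racgap1, the partner of Ect2 at the central spindle, fell in mixed against basal aggregates, at -0.92 ± 0.20 (edgeR adjusted p = 0.0109), from replicates of 89.6, 75.1 and 91.9 CPM in mixed and 168, 155 and 165 CPM in basal aggregates.

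Condensin compacts mitotic chromosomes. Its subunit Ncapg had 32.6, 26.5 and 25.8 CPM in mixed, 2.64, 2.97 and 3.61 CPM in luminal and 55.6, 52.5 and 48.2 CPM in basal aggregates. The core ATPase subunit Smc2 had 148, 146 and 185 CPM in mixed, 16.5, 18.6 and 12.4 CPM in luminal and 104, 207 and 115 CPM in basal aggregates. In mixed against basal aggregates Ncapg fell by 0.88 on the log2 scale (SE 0.19, edgeR adjusted p = 0.0130), and Smc2 gave 0.17 ± 0.26 and Smc4 0.23 ± 0.21 (edgeR adjusted p = 0.697 and 0.493). The difference between these genes was not tested. In luminal against basal aggregates Ncapg, Ncaph, Smc2 and Smc4 showed differences of -4.08, -3.45, -3.16 and -2.21, and all of them passed. For Ncapg 13.4% of exon bases are shared with Lcorl.

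The transcription factors of the G2/M wave were lower too. Foxm1 had 27.4, 30.2 and 31.4 CPM in mixed, 2.16, 1.31 and 3.05 CPM in luminal and 56.9, 50.4 and 58.9 CPM in basal aggregates. Mybl2, B-Myb, had 12.6, 11.7 and 16.99 CPM in mixed, 1.35, 1.66 and 2.99 CPM in luminal and 38.7, 27.7 and 42.4 CPM in basal aggregates. Luminal libraries were lowest in both, and the mixed libraries lay below all 3 basal libraries. Both fell in mixed against basal aggregates, Foxm1 at -0.90 ± 0.24 (edgeR adjusted p = 0.0308) and Mybl2 at -1.39 ± 0.31 (edgeR adjusted p = 0.0134), and both fell in luminal against basal aggregates, at -4.67 and -4.18.

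In mixed against basal aggregates 13 of the 54 genes fell and none rose, where 7.33% of all tested genes fell and 6.39% rose. At an unadjusted p below 0.05 the counts were 23 and 0, a cutoff for which no share of all genes is given here. The 13 were Bub1b, Ccnb1, Cdc20, Cdc25c, Espl1, Foxm1, Kif20a, Kif22, Kif2c, Mybl2, Ncapg, Prc1 and Racgap1. The median over the 54 was -0.48, against -0.067 over all tested genes, and the range ran from -1.81 (Kif20a) to 0.38 (Pttg1). Mixed libraries lay below all basal libraries in 31 members, a pattern shown by 18.7% of all tested genes. Once the code series was a term, 4 genes fell and none rose, where 1.79% of all tested genes fell and 2.93% rose. They were Cdc20, Cdc25c, Kif22 and Plk1, of which all but Plk1 are among the 13. The median of the 54 was then -0.68, against -0.034 over all tested genes, and 53 of the 54 values were below 0. That fit sets the mixed libraries against basal 2 alone, so these signs rest on 1 basal library. All 3 mixed libraries lay below basal 2 in 50 members, a pattern shown by 34.5% of all tested genes.

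Basal 2 stands apart from basal 1 and 3, over all genes as well as in these. A chi-square per gene was 104 and 69.01 for basal 2 with basal 1 and 3, and 11.5 between basal 1 and 3. Pairs of luminal libraries gave 38.6 to 57.2 and pairs of mixed libraries 16.7 to 35.7. Basal 2 was the highest basal library in 39 members, where 43.2% of all tested genes had it highest. It was the lowest in 10, where 44.8% had it lowest, and in between in 5. Its ratio to the mean of basal 1 and 3 ran from 0.575 (Kif20a) to 2.27 (Ube2c). Without basal 2 the test called 15 members lower and 5 higher in mixed than in basal aggregates, the 5 being Birc5 (0.45), Cenpk (0.69), Pttg1 (0.68), Smc4 (0.48) and Ube2c (0.51). Of the 13, 12 were still called lower without it, all except Ccnb1. The count of members called lower was 5 without basal 1, 4 without basal 3, 7 without mixed 1, 6 without mixed 2 and 9 without mixed 3. For these fits, and for the fit without basal 2, the share of all genes called is not given here. Their counts are therefore not read as a trait of the members. Kif22 was the only member called lower under all 18 settings.

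**Figure D3:**
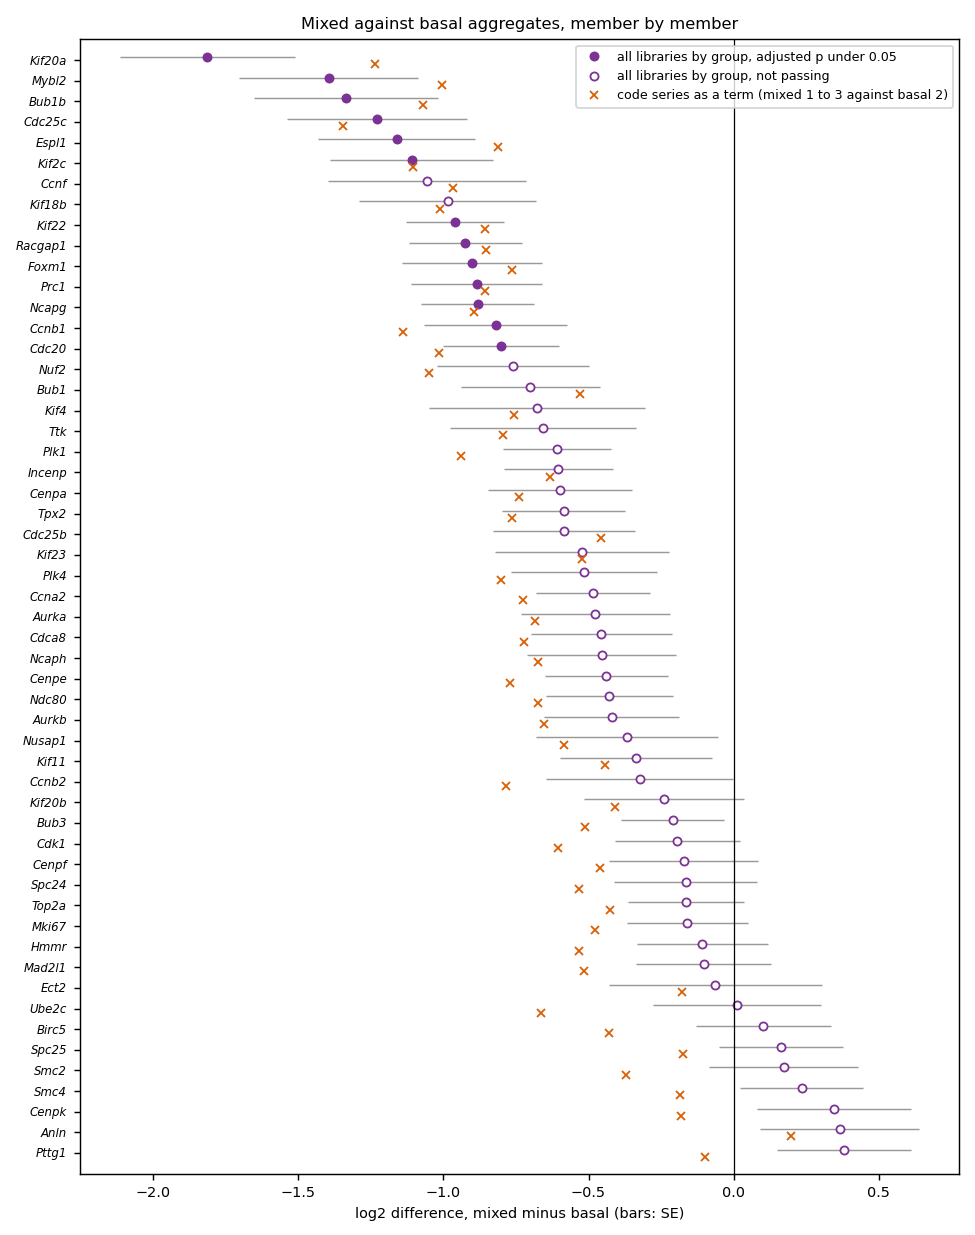
Log2 difference of mixed minus basal aggregates for each of the 54 genes (x axis), ordered by value, with bars for the standard error, filled circles for genes with an adjusted p below 0.05 and crosses for the fit that includes the code series. The values run from -1.81 (Kif20a) to 0.38 (Pttg1), with 13 filled circles, all below 0.

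Because the mixed aggregates were built as a 50% mixture, each mixed library was placed between the luminal mean (0%) and the basal mean (100%) on the linear CPM scale for the 52 members with a luminal to basal difference of at least 1 on the log2 scale. The median position was 60.9%, 63.4% and 74.9% in mixed 1, 2 and 3, and 69.1% for their mean. The mean lay above the midpoint in 42 of the 52 members and above the basal mean in 7, which were Cenpk, Spc25, Birc5, Ube2c, Anln, Smc2 and Smc4. Of the 1940 genes called lower in luminal aggregates by at least 2-fold, 1007 lay above the midpoint and 328 above the basal mean. A position above the basal mean was thus not particular to the members. All 3 mixed libraries lay above the midpoint in 30 members, against 34.4% of the 1940 genes that were called lower in luminal aggregates by at least 2-fold, whose median position was 52.1%. Basal and myoepithelial markers, placed in the same way, had a median position of 48.7% over 12 genes. A position above the midpoint was not particular to the members: the median was 72.99% over 56 other mitosis genes and 76.5% over 25 DNA replication genes. Among genes higher in luminal aggregates by at least 2-fold it was 66.1% over 1516 genes and 33.05% over 9 luminal markers. Against basal 2 alone as the basal end, the median was 59.5% over the members and 56.4% over the basal and myoepithelial markers. On that scale it was 47.7% over the 1940 genes lower in luminal aggregates, 60.7% over the other mitosis genes and 63.7% over the DNA replication genes. The distance between members and basal markers thus depended on the basal library used. These positions carry no test, and cell numbers in the aggregates at the end of migration are not given in the labels.

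By role, the median position was 43.04% for the 2 transcription factors and 55.1% for the 8 kinesins. For 3 genes of anaphase onset it was 55.1%, and for Cdk1, its cyclins and phosphatases (7 genes) 55.7%. It was 61.2% for 4 checkpoint genes, 65.8% for the 3 Polo and Aurora A kinases and 70.8% for 4 spindle assembly genes. The passenger complex (4 genes) had 72.5%, centromere and kinetochore (8 genes) 80.7%, and Mki67 with Top2a 89.1%. Condensin (4 genes) had 92.2% and cytokinesis (3 genes) 95.2%. With 2 to 8 genes per role, no order of the roles was tested. With basal 2 alone as the basal end, the medians were 51.5% for the transcription factors, 55.3% for the kinesins, 64.8% for centromere and kinetochore and 67.5% for condensin. The remaining roles then ran from 52.7% (Polo and Aurora A kinases) to 87.1% (cytokinesis). Single genes ran from 23.7% (Kif20a) to 156% (Anln).

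**Figure D4:**
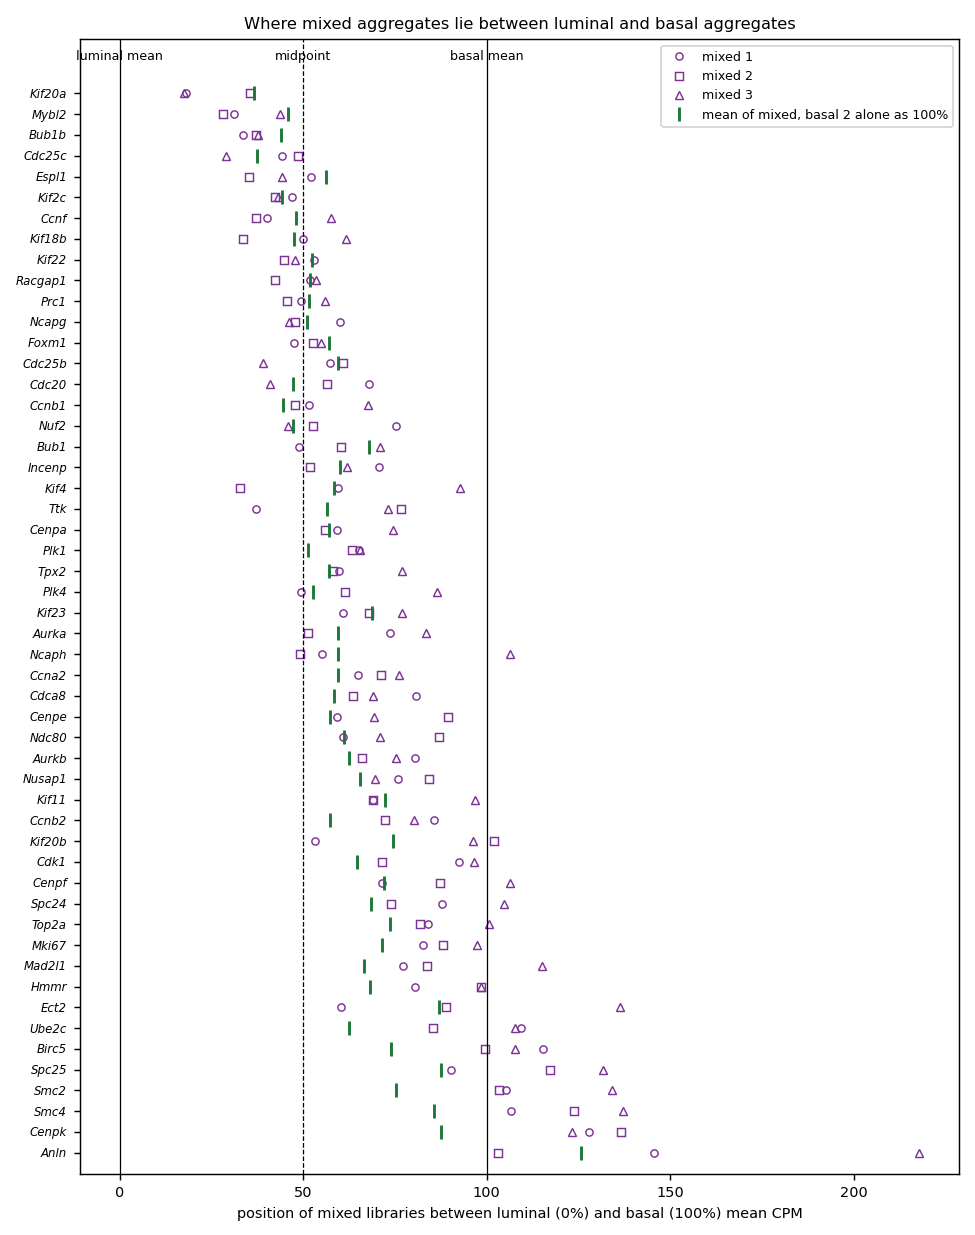
Position of mixed 1, 2 and 3 (symbols) between the luminal mean (0%) and the basal mean (100%) for 52 members, ordered by the mean of the 3 libraries, with a green tick for the mean when basal 2 alone is the basal end. Most genes lie right of the midpoint, with a median of 69.1%. The green tick lies left of all 3 symbols for Birc5, Ube2c, Smc2, Smc4 and Cenpk and for others such as Mki67, Cdk1 and Plk1. It lies right of all 3 for some, such as Kif20a and Bub1b.

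Over the 9 libraries log2 CPM of 52 of the 54 members correlated with the mean of all members at r above 0.9, with a median of 0.987 and Pttg1 lowest at 0.27. This is a description over 9 libraries that share group and depth, with each member also part of the mean. The low luminal levels described above enter these values, and the share of all genes with r above 0.9 is not given here. Within the basal group members did not all move together: basal 2 was the highest basal library in 39 and the lowest in 10.

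Genes next to the 54 in the same processes were followed in lists. The counts below stand against 14.4% of all tested genes lower in luminal than in basal aggregates. In mixed aggregates 7.33% of all tested genes were lower than in basal ones and 15.2% were higher than in luminal ones. Of 59 other mitosis genes 56 fell in luminal against basal aggregates and none rose, with a median of -3.65. The largest differences in this list were those of Troap, a spindle protein with 0 counts in luminal 1 and 2 (-6.12 ± 0.86, edgeR adjusted p = 2.55e-04), and Ska1, which couples kinetochores to microtubules (-5.65 ± 0.52, edgeR adjusted p = 1.05e-05). In mixed against basal aggregates 9 of the 59 fell, led by Nsl1, a kinetochore subunit (-1.47 ± 0.33, edgeR adjusted p = 0.0135), and Bora, an activator of Aurora A towards Plk1 (-1.29 ± 0.39, edgeR adjusted p = 0.0492), and in mixed against luminal aggregates 52 rose. Of 26 DNA replication genes, which belong to S phase, 25 fell in luminal against basal aggregates, with a median of -2.65. Rrm2, a subunit of ribonucleotide reductase, gave -4.49 ± 0.33 (edgeR adjusted p = 1.99e-06) and Mcm5, of the replicative helicase, -4.48 ± 0.18 (edgeR adjusted p = 7.83e-08). In mixed against basal aggregates 6 of the 26 fell and none rose, Pold1 and Mcm5 by the most (-1.02 and -0.94), and in mixed against luminal aggregates 24 rose. With the code series as a term 2 of the 59 and 1 of the 26 (Mcm5) fell in mixed against basal aggregates. Nsl1, Bora and Pold1 were not among them, and 1.79% of all tested genes fell in that fit. There 34 of the 59 and 15 of the 26 rose in mixed against luminal aggregates, where 2.05% of all tested genes rose.

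In the next 3 lists fewer genes passed, and their counts stand against 14.4% of all tested genes lower and 12.8% higher in luminal than in basal aggregates. Of 19 subunits and regulators of the anaphase-promoting complex 6 fell and 1 rose in luminal against basal aggregates, with a median of -0.40. Those that fell most were the regulators Fbxo5, the inhibitor Emi1 (-3.17 ± 0.28, edgeR adjusted p = 6.93e-06), and Ube2s, the chain-elongating enzyme (-1.15 ± 0.28, edgeR adjusted p = 0.00951), and the subunit Anapc7 rose (0.49 ± 0.15, edgeR adjusted p = 0.0348). Of 13 cohesin and further condensin genes 8 fell and none rose, led by the condensin subunits Ncapg2 (-3.83) and Ncapd2 (-3.34). Of 20 tubulin and centrosome genes 14 fell and none rose, led by Stil, a centriole duplication factor (-3.53), and Stmn1, a microtubule destabiliser (-2.96). In mixed against basal aggregates, where 7.33% of all tested genes fell and 6.39% rose, these lists together held 3 lower and 2 higher genes among 52: Cdc23, Anapc5 and Tuba1a fell (-1.28, -0.83 and -1.08), and Anapc13 and the cohesin loader Nipbl rose (1.01 and 0.57). In the series-adjusted fit the luminal counts were 3 of 19, 4 of 13 and 10 of 20 lower, against 6.8% of all genes. Ube2s and Anapc7 no longer passed, and of the 5 genes named for mixed against basal aggregates Tuba1a alone passed.

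Of 17 genes of the MuvB, DREAM and E2F systems, the regulators above the wave, 9 fell and 1 rose in luminal against basal aggregates, where 14.4% of all tested genes fell and 12.8% rose, so that a single riser is no trait of the list. E2f8 and E2f7, repressor E2Fs that are themselves made in S phase, fell (-6.34 ± 0.83 and -6.02 ± 0.51, edgeR adjusted p = 1.50e-04 and 5.48e-06), E2f8 with 0 counts in luminal 2 and 3. The gene that rose was Rb1, the retinoblastoma protein that restrains E2F, with 104, 112 and 143 CPM in mixed, 233, 186 and 276 CPM in luminal and 28.2, 23.4 and 25.6 CPM in basal aggregates. The 3 groups did not overlap, and Rb1 rose in luminal against basal aggregates (3.17 ± 0.21, edgeR adjusted p = 8.63e-07) and in mixed against basal aggregates (2.22 ± 0.20, edgeR adjusted p = 6.28e-05) and fell in mixed against luminal aggregates (-0.95 ± 0.19, edgeR adjusted p = 0.00442); 14.9% of its exon bases are shared with Lpar6 and Rcbtb2. In mixed against luminal aggregates 8 of the 17 rose and 2 fell, where 15.2% of all tested genes rose and 14.2% fell. E2f8 and E2f7 rose most (6.06 and 5.33), and the 2 that fell were Rb1 and its relative Rbl2 (-0.85). Rb1, with the code series as a term, also rose in both comparisons with basal aggregates, and neither Rb1 nor Rbl2 passed in mixed against luminal aggregates.

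Of 16 genes that promote or brake entry into mitosis 7 fell and 3 rose in luminal against basal aggregates; against the 12.8% of all tested genes that rose, 3 of 16 is near the background. Chek1, the checkpoint kinase, and Mastl, which protects mitotic phosphorylation, fell (-3.60 ± 0.33 and -3.02 ± 0.44, edgeR adjusted p = 9.69e-06 and 3.31e-04). Gadd45a, a stress-induced brake on Cdk1, had 20.5, 23.1 and 20.04 CPM in mixed, 62.8, 54.8 and 50.04 CPM in luminal and 13.7, 13.4 and 11.6 CPM in basal aggregates and rose (2.11 ± 0.19, edgeR adjusted p = 8.22e-06), as did the antiproliferative gene Btg2 (1.51 ± 0.23, edgeR adjusted p = 5.04e-04). In mixed against basal aggregates 2 of the 16 rose and 1 fell, where 6.39% of all tested genes rose and 7.33% fell. Counts this small are not read as a trait of the list. Gadd45a and Cdkn1b, the CDK inhibitor p27, rose (0.72 ± 0.18 and 0.99 ± 0.21, edgeR adjusted p = 0.0254 and 0.0119), and Cdkn1c, the CDK inhibitor p57, fell (-2.72 ± 0.61, edgeR adjusted p = 0.0144). Of the exon bases of Gadd45a 19.1% are shared with E230016M11Rik, and of those of Cdkn1c 30.7% are shared with Gm44732. In the series-adjusted fit 3 of the 16 fell and 3 rose in luminal against basal aggregates, against 6.8% and 7.09% of all genes. None of the 16 was called in mixed against basal aggregates, Gadd45a giving 0.66 (edgeR adjusted p = 0.215).

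**Figure D5:**
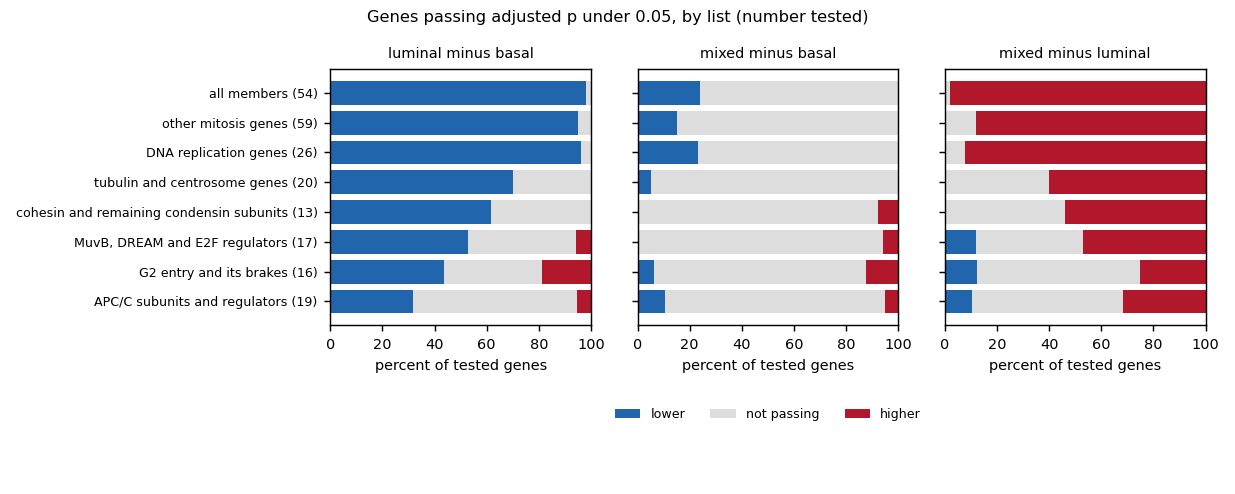
Percent of the tested genes of each list (x axis) that were lower (blue), not past the threshold (grey) or higher (red) in luminal minus basal, mixed minus basal and mixed minus luminal aggregates, with the number of genes in parentheses. The 54 members, the other mitosis genes and the DNA replication genes are almost wholly blue in the first panel (53 of 54, 56 of 59 and 25 of 26), and the panel for mixed minus basal is mostly grey.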

How the data were processed

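RNA of 9 samples was sequenced after stranded mRNA library preparation, per the labels. The deposited values are raw counts for each gene name. The authors counted read pairs on exons with featureCounts 2.0.1, with strand not used and reads with several alignments left out, per the file headers. Trim Galore, Subread and build mm39 are named in the submitters' processing notes; the aligner's settings and the annotation release are not stated in the sources read here. Strandless counting leaves genes with overlapping exons uncertain, which touches more than 10% of the exon bases of 7 members. They are Cdc25c, Kif20a, Ube2c, Prc1, Ncapg, Ccna2 (12.5%, with Exosc9) and Kif4 (15.1%, with Pdzd11). Of the list genes named, the share was 30.7% for Cdkn1c, 26.2% for Tuba1a, 21.0% for Rbl2 and 19.1% for Gadd45a. For Rb1 it was 14.9%, for Cdc23 13.4%, for E2f8 11.2% and for Anapc13 10.1%.

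Counts were analysed with R 4.3.3, edgeR 4.0.16 and limma 3.58.1: filterByExpr, TMM scaling, and 1 quasi-likelihood fit (robust, two-sided) of all 9 libraries by group, with 6 residual degrees of freedom (4 with the code series) and Benjamini-Hochberg adjustment over 18051 genes. At this depth 3 counts equal 0.152 to 0.187 CPM, counting error only. Results were recomputed with other scalings, with DESeq2 1.42.0 and limma-voom, with no filter, with fits of 2 groups, with the code series, with a replicate block and with each library left out. The members and all gene lists were chosen with earlier results of these data known. All 54 members may be named; per list and contrast up to 2 called genes with the largest difference in each direction were named, and values in every library follow a list of members with the extremes of each contrast, to which Cdc25b, Bub1b, Cenpk, Kif22, Racgap1, Rb1 and Gadd45a were added after their values were seen. CPM per kilobase divides by the exon length of the table. One of the immune markers first listed is not reported here and was left out of the sum of that list.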

Additional observations from a re-analysis of the deposited data

How the results depend on the processing

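Luminal against basal aggregates gave 53 members lower and 0 higher under every setting run, with medians of -4.58 to -4.33 when a library was left out, and mixed against luminal aggregates gave 52 or 53 higher when a library was left out and 48 with the code series as a term. Mixed against basal aggregates was the comparison that moved. Against 13 members lower, library size scaling, DESeq2, limma-voom and no filter on low counts gave 21 each, size factors by relative log expression gave 16, the 2 groups alone gave 17 and the code series as a term gave 4, with a median of -0.68. Leaving out 1 library gave 4 to 16 lower and 0 to 5 higher. The share of all genes called in those fits is not given here. The title numbers showed no pairing (r of same-numbered libraries -0.17 to 0.20, and 4 of 9 libraries closest to their own number), and with the title number as a replicate block 14 members were lower, 12 of them among the 13. Library size scaling moved the median of all genes by -0.14 in luminal minus basal and -0.15 in mixed minus basal, and the higher share of all calls was 35.0% and 33.6% under it, against 47.0% and 46.5% under TMM. The position of the mixed libraries was 88.0% on log2 CPM and 59.5% with basal 2 alone (chosen after seeing the data), against 69.1%. The causes were not tested.

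Values whose sign turned against the fit by group did not pass. Yet Birc5, Cenpk, Pttg1, Smc4 and Ube2c, all turned with the code series as a term, were called higher in mixed aggregates without basal 2. With the code series as a term mixed minus basal was -0.18 for Cenpk, -0.18 for Spc25, -0.43 for Birc5, -0.66 for Ube2c, -0.098 for Pttg1, -0.37 for Smc2 and -0.18 for Smc4, mixed minus luminal was -0.29 for Pttg1 and luminal minus basal was 0.19 for Pttg1. Library size scaling gave -0.018 for Birc5 and -0.098 for Ube2c, and relative log expression and DESeq2 gave -0.0048 each for Ube2c. Luminal minus basal of Pttg1 was 0.014 with limma-voom and 0.0012 with no filter. Leaving out 1 library moved mixed minus basal from -0.25 to 0.017 for Mki67, -0.34 to 0.050 for Cdk1, -0.28 to 0.14 for Mad2l1, -0.31 to 0.046 for Spc24, -0.070 to 0.45 for Birc5, -0.20 to 0.51 for Ube2c, -0.22 to 0.15 for Hmmr and -0.39 to 0.14 for Ect2, and luminal minus basal of Pttg1 from -0.15 to 0.27. Depth limits the luminal values most, the lowest being 0.356 CPM (Espl1, luminal 2).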

Other observations

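Outside the members and the lists of mitosis, replication and cell cycle genes, though not outside the cell type markers, the 10 genes whose log2 CPM followed the mean of the 54 members most closely over the 9 libraries, taking genes that averaged 5 CPM or more, were Pcdh7, Trim59, H1f5, Tcf19, Krt5, Uhrf1, Ccne1, Cyp7b1, P2ry1 and Bok, with r from 0.994 to 0.996. Libraries share group and depth, and no p is given. Several are tied to S phase by what is known of them: Ccne1 is cyclin E1, Uhrf1 copies DNA methylation after replication and H1f5 is a linker histone. Krt5 is a basal keratin and belongs to the basal markers, and it averaged 1123 ± 36.5 CPM in mixed, 17.7 ± 5.16 CPM in luminal and 1842 ± 244 CPM in basal aggregates (SD, n = 3 each). Pcdh7, a protocadherin, averaged 36.7 ± 5.67 CPM in mixed, 0.913 ± 0.504 CPM in luminal and 51.9 ± 9.61 CPM in basal aggregates (SD, n = 3 each). A cell type marker and cell cycle genes thus stand side by side in this order.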
